A study of Homo sapiens with 2 samples.

Results

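The genes of endoplasmic reticulum (ER) translocation, protein folding and the unfolded protein response were measured by RNA sequencing in a pair of libraries, 1 labelled DR and 1 labelled WT. The 43 genes were chosen by symbol from the 18930 genes of the deposited table. Of these, 41 symbols were in the table as written and 2 were found under their current symbols through RefSeq synonyms, SRPRA for SRPR and ERO1B for ERO1LB. All 43 had reads in both libraries and passed the minimum of 10 reads over both (genes that did are called tested below, although no statistical test was run). Both carry the label A375, a line of human melanoma cells. The labels give DMEM with serum as the medium, and the study's methods give RPMI for the tumour cells. DR stands for cells made resistant to dacarbazine, a drug that alkylates DNA, and WT for the wild-type control. The labels give 105 days of the drug, spelled DITC there, for WT as well as for DR. The study's methods describe DR cells as the survivors of rising doses and do not say whether they are 1 clone, and separate cultures are not described for the libraries. The count columns were given to the samples by their descriptions, which are near-identical and name neither drug nor wild type, so each direction below depends on those descriptions, and DR and WT below mean the libraries so labelled.

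The ER takes in proteins that will be secreted or placed in membranes. The signal recognition particle brings the ribosome to its receptor, the SEC61 channel passes the growing chain through the membrane, and signal peptidase removes the leader. Chaperones and disulfide enzymes then fold the chain, and proteins that fail to fold are pulled back and destroyed by ER-associated degradation. When unfolded proteins build up, 3 sensors in the ER membrane (IRE1, PERK and ATF6) raise the expression of these same genes. The system is known to be large in cells that secrete much protein, plasma cells above all.

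The rounded estimated reads summed to 54878310 (DR) and 35294629 (WT). Levels are given as CPM (reads scaled by TMM to a common library size) and, wherever genes are compared with each other, as TPM (reads per base of gene length, scaled to a common sum). With 1 library per group there was no replicate check and no test, and each 95% Clopper-Pearson interval covers read counting only. In bulk RNA, fewer cells of a type and less RNA per cell cannot be told apart. Most markers of the labelled cell type were low. Of 10 melanocytic markers, TYR and S100B were not analysed here, TYRP1 had 0 reads in DR, SOX10 had 3 and 0 reads, and 5 of the 8 with counts were below 1 CPM in each library. The 8 together had 41.5 CPM in DR and 40.7 in WT, most of it from MITF (34.5 and 34.8 CPM), the only 1 above the median gene in each library. The 12 plasma cell markers together had 5184 and 6269 CPM, and 10 of the 12 lay above the median gene in each library. That sum was lower in DR. JCHAIN (2008.5 and 2922.4 CPM), IRF4 (598.8 and 833.0), XBP1 (570.6 and 741.5) and SDC1 (367.9 and 566.4) were lower there. Others were higher, and the median marker had 385 CPM in DR and 254 in WT. Of the 12, 6 lay above 0 and 6 below. MZB1, CD79A and FCRL5 were more than 2-fold higher in DR, with 0 more than 2-fold lower (7.42% and 4.19% of all genes tested). The interval of MZB1 spanned the 2-fold line (0.96 to 1.04), and CD79A (2.46 and 0.92 CPM) and FCRL5 (1.455 and 0.402 CPM) were low. XBP1 and MZB1 are in that marker list and among the ER genes below. The part of cell identity in the values that follow was not tested.

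Several of these genes are known targets of the stress response, and their promoters were searched for its letters. RefSeq promoters (GRCh38.p14, 250 bases before to 50 after a gene's start) were matched for 37 of the 43 genes by gene ID. The ER stress element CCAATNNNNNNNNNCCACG, which ATF6 and XBP1 are known to bind together with the factor NF-Y, was searched on both strands. It was held by 7 of the 37 genes, against 25 of all 27305 genes with a promoter, or 0.0916%. The 8 sites are shown 5′ to 3′ in the direction of the element, with its fixed letters in capitals, because they are the sequence these chaperone and disulfide enzyme genes share.
HSPA5 (chr9:125241391-125241409, minus strand): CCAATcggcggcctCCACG
HSP90B1, site farther from the start (chr12:103930216-103930234, plus strand): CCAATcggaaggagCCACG
HSP90B1, site nearer the start (chr12:103930321-103930339, minus strand): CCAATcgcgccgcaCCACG
CALR (chr19:12938384-12938402, minus strand): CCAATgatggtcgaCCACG
CANX (chr5:179698778-179698796, plus strand): CCAATcttcacactCCACG
CRELD2 (chr22:49918554-49918572, minus strand): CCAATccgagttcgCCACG
PDIA6 (chr2:10812853-10812871, minus strand): CCAATgagccgcagCCACG
ERO1B (chr1:236282183-236282201, plus strand): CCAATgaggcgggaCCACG

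The shorter form of the element, in which ATTGG and CCACG stand 1 base apart, was searched in the same way and held by 3 of the 37 genes, against 19 of the 27305 genes, or 0.0696%. These sites are shown in the same way.
HERPUD1 (chr16:56932025-56932035, plus strand): ATTGGgCCACG
HYOU1, site nearer the start (chr11:119057274-119057284, plus strand): ATTGGaCCACG
HYOU1, site farther from the start (chr11:119057380-119057390, plus strand): ATTGGaCCACG
SDF2L1 (chr22:21642114-21642124, minus strand): ATTGGtCCACG

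The octamer TGACGTGG, the unfolded protein response element that XBP1 is known to bind, was found in 6 of the 37 promoters (DNAJC10, HYOU1, SEC62, SSR3, SSR4 and TXNDC5), against 253 of the 27305 genes, or 0.927%. In HYOU1 it overlaps the farther of the sites shown. The promoter of HSPA5, which encodes the chaperone BiP and is the best known target of the response, is shown whole (chr9:125241294-125241593, minus strand). Its exact match to the ER stress element, in capitals, lies near the start of transcription. Copies of the element with other letters were not marked.
HSPA5 promoter: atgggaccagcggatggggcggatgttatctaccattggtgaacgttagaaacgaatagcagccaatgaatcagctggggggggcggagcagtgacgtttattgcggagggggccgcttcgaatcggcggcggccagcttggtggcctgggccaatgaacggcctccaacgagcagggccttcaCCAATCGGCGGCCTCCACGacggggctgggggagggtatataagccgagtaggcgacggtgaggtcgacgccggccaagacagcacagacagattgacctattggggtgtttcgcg

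As a group these genes stood among the more abundant in both libraries. By TPM their median percentile among the 16210 genes tested was 94.0 in DR and 93.8 in WT, and 28 of the 43 lay above the 90th percentile in each. ERO1B, an oxidase that recharges disulfide enzymes, was the only one below the median gene, at 2.89 and 2.17 TPM. Together the 43 genes took 1.55% of all TPM in DR and 1.41% in WT. The highest was TXNDC5, a disulfide enzyme, at 2343 and 1623 TPM, which ranked 55 and 85 of all genes tested. It was followed in DR by CALR (1698 TPM), HSP90B1 (1306), P4HB (1126) and SSR2 (766). In WT these had 1348, 912, 935 and 818 TPM, so the same 5 genes led there, with P4HB ahead of HSP90B1. Across the 43 genes the log2 TPM of the libraries had a Pearson r of 0.957, or 0.979 without TRAM1. This is a correlation across genes, which share their length and base composition in both libraries.

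**Figure D1:**
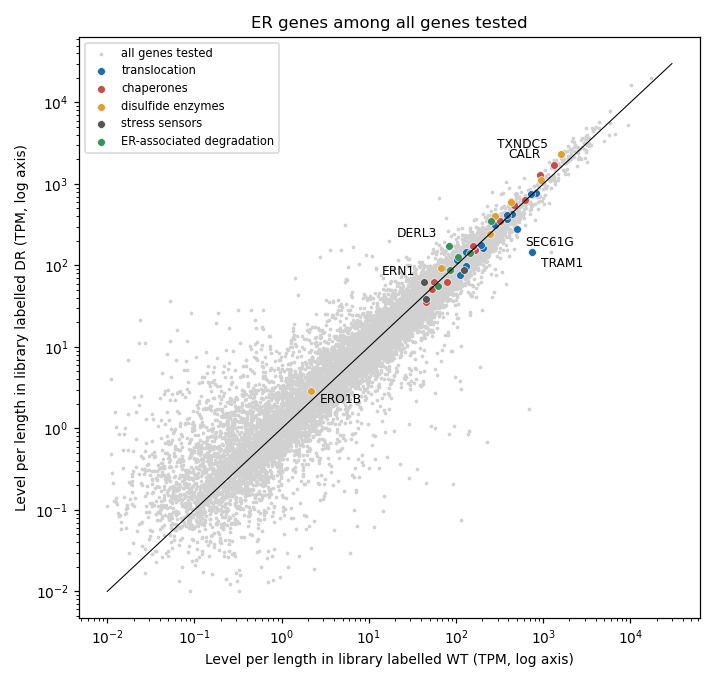
Level per length (TPM, log axes) of each gene in WT and DR, with all genes tested above 0.01 TPM in both in grey, the ER genes in colour by role, and the line of equal level. The ER genes sit near the line at the upper end, with ERO1B (2.17 and 2.89 TPM) as the low exception, TRAM1 and SEC61G below the line and DERL3 above it.

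The 43 genes differed little between the libraries, with a few exceptions. Of the 43, 40 (93.0%) lay within 1.5-fold, against 73.8% of all genes tested and 80.7% of the 8168 genes that averaged 20 CPM or more, a level that 42 of the 43 reached. Those 8168 genes are not matched for level, with a median of 59.1 CPM in DR and 61.2 in WT, against 220.6 and 220.0 for the 43. Only DERL3 was more than 2-fold higher in DR, against 7.42% of all genes tested (3.18% of those at 20 CPM or more). TRAM1 alone was more than 2-fold lower, against 4.19% of all genes tested (3.22%). At 1.5-fold, DERL3 remained the only gene higher (background 15.0%, or 8.36% at 20 CPM or more) and SEC61G joined TRAM1 among the lower (11.3%, or 10.9%). The median log2 fold change of the 43 genes was 0.08, and that of all genes tested was 0.01. The middle 50% of the 43 spanned -0.11 to 0.31, and that of all genes -0.29 to 0.34. The counting intervals lay above 0 for 23 genes, below 0 for 14 and across 0 for 6. In RefSeq the spans of 11 of the 43 genes overlap another tested gene, SEC61A1, CANX, PDIA3 and PDIA6 among them, and without a stated strand setting their reads may mix. The intervals were narrow, with a median width of 0.08 on the log2 scale, and do not include the spread between cultures.

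**Figure D2:**
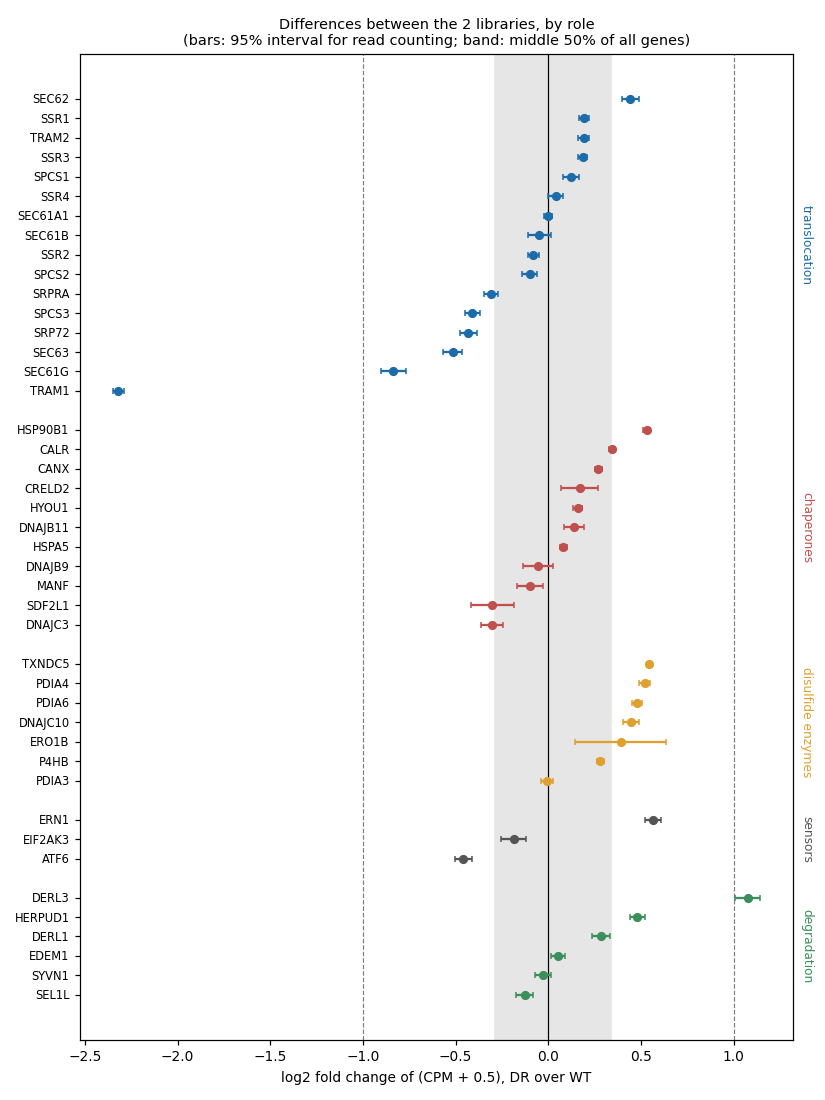
log2 fold change of (CPM + 0.5), DR over WT, for the 43 genes grouped by role, with bars for the 95% interval of read counting, a band for the middle 50% of all genes tested (-0.29 to 0.34) and dashed lines at 2-fold. TRAM1 (-2.32) lies far to the left, DERL3 (1.08) just past the right line, and 6 of the 7 disulfide enzymes to the right of 0.

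Among the translocation genes TRAM1 differed most, and others lay on both sides of 0. TRAM1, a membrane protein beside the SEC61 channel that helps nascent chains enter, had 10921 reads (196.2 CPM) in DR and 34127 reads (980.8 CPM) in WT. It was thus 4.99-fold lower in DR (log2 fold change -2.32, interval -2.35 to -2.29). Its reads were whole numbers in both libraries. Its paralog TRAM2 had 461.7 CPM in DR and 404.7 in WT (log2 fold change 0.19, interval 0.16 to 0.22). Per length, TRAM1 was level with TRAM2 in DR, with 0.999 times its TPM, and had 5.70 times the TPM of TRAM2 in WT. Without TRAM1 the other 15 translocation genes summed to 4401 and 4449 CPM, a log2 ratio of -0.02, and with it the 16 genes summed to 4597 and 5430 CPM, a log2 ratio of -0.24.

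The subunits of the SEC61 channel did not differ alike. SEC61A1, the pore itself, had 701.5 CPM in DR and 702.4 in WT (log2 fold change -0.002, interval -0.03 to 0.02). SEC61B, a small subunit at the side of the pore, had 96.2 and 99.5 CPM (-0.05, interval -0.11 to 0.01). SEC61G, the small subunit that clamps the pore, had 60.6 and 108.6 CPM, 1.79-fold lower in DR (-0.84, interval -0.90 to -0.77). Per length, SEC61A1 had 1.53 times the TPM of SEC61G in DR and 0.854 times in WT. The partners of the channel that feed it after translation went in opposite directions. SEC62 had 204.5 CPM in DR and 150.4 in WT (0.44, interval 0.40 to 0.49), the largest difference upward among the translocation genes. SEC63, which recruits BiP to the channel, had 117.7 and 168.4 CPM (-0.52, interval -0.57 to -0.47).

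The 4 subunits of the translocon-associated complex, SSR1, SSR2, SSR3 and SSR4, which help some signal sequences enter, lay close together, with log2 fold changes between -0.08 for SSR2 and 0.19 for SSR1 and SSR3. SSR2 and SSR4 were the most abundant per length, at 766 and 747 TPM in DR and 818 and 733 in WT. The noncatalytic subunits of signal peptidase ranged from 0.12 for SPCS1 to -0.41 for SPCS3. SRP72, a protein of the signal recognition particle, had 164.8 and 222.4 CPM (-0.43), and SRPRA, the alpha subunit of its receptor, 227.5 and 281.7 CPM (-0.31). Of the 16 translocation genes 6 lay above 0 and 10 below, with a median of -0.06.

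**Figure D3:**
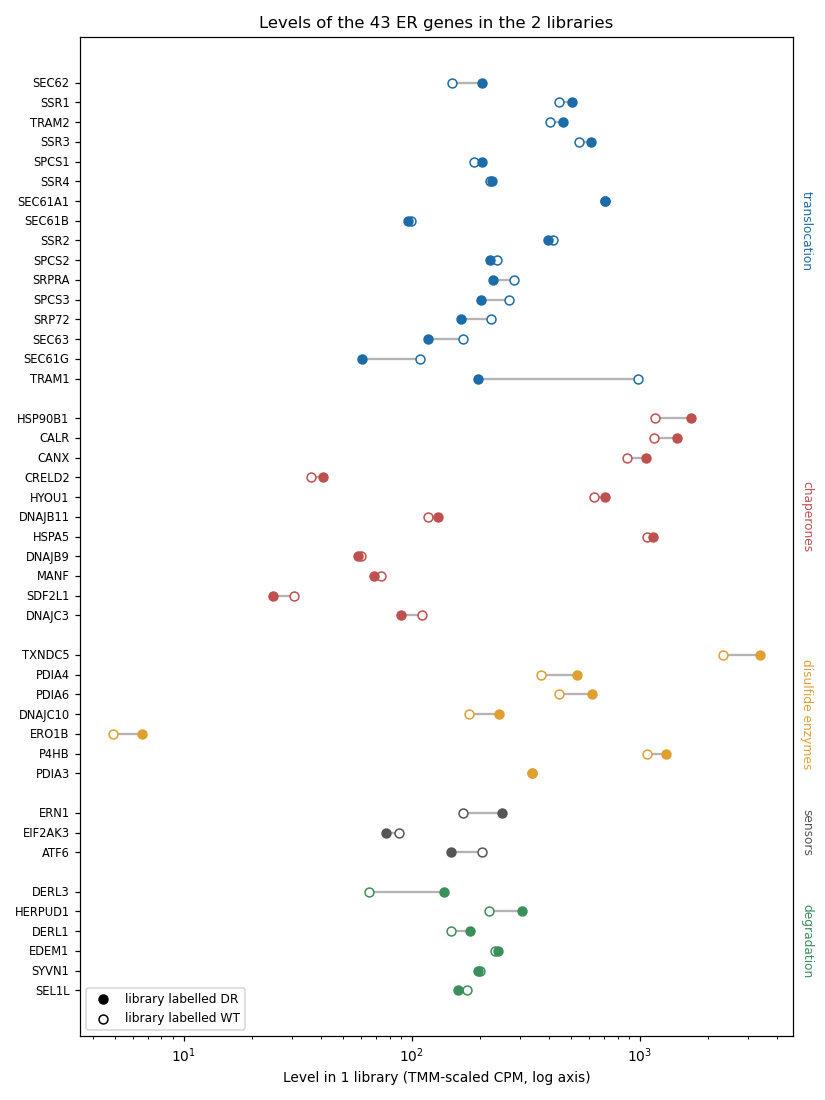
Level of each of the 43 genes (TMM-scaled CPM, log axis) in DR (filled) and WT (open), joined by a line and grouped by role. The line of TRAM1, from 196.2 to 980.8 CPM, is the longest, and the symbols of SEC61A1 and PDIA3 lie on each other.

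The chaperones were close to equal, and several of the most abundant were somewhat higher in DR. HSP90B1, the ER member of the HSP90 family, had 1680.9 CPM in DR and 1164.1 in WT (log2 fold change 0.53, interval 0.51 to 0.55), the largest value of the group. CALR and CANX, the lectins that hold sugar-bearing chains, had 1463.7 against 1152.7 CPM (0.34) and 1061.2 against 880.0 CPM (0.27). HSPA5 itself had 1139.6 CPM in DR and 1076.5 in WT, a log2 fold change of 0.08 (interval 0.06 to 0.10). Its partners spread to both sides of it. HYOU1, which exchanges its nucleotide, was at 0.16 and DNAJB11, a J-domain partner, at 0.14. DNAJB9, a J-domain partner that also holds IRE1 in check, was at -0.05 (interval -0.13 to 0.02). DNAJC3, the J-domain protein known as P58IPK, had 90.2 and 111.5 CPM and the lowest value of the group (-0.30, interval -0.37 to -0.24). The stress-induced proteins SDF2L1, CRELD2 and MANF were at -0.30, 0.17 and -0.10. In all, 7 of the 11 chaperones lay above 0 and 4 below, none beyond 1.5-fold, with a median of 0.14.

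The disulfide enzymes were the role with the highest median, 0.45. TXNDC5 had 188300 reads in DR and 80814 in WT, or 3382.5 and 2322.7 CPM (log2 fold change 0.54, interval 0.53 to 0.55). It alone held 17.6% of the CPM of all 43 genes in DR and 13.7% in WT. Its reads were fractional, and a read-through transcript with its neighbour is annotated in RefSeq, so part of its count may depend on how reads were shared out. PDIA4 (531.8 and 370.7 CPM, 0.52), PDIA6 (620.0 and 445.0 CPM, 0.48) and DNAJC10, a reductase with a J domain (242.4 and 177.6 CPM, 0.45), had nearly the same difference. P4HB, the classical protein disulfide isomerase, had 1305.9 and 1075.6 CPM (0.28). ERO1B had only 365 and 170 reads (0.39, interval 0.14 to 0.64). The exception was PDIA3, the isomerase that works with CALR and CANX, with 335.9 CPM in DR and 337.3 in WT (-0.01, interval -0.04 to 0.03). The 7 genes summed to 6425 and 4734 CPM, a log2 ratio of 0.44, and without TXNDC5 to 3042 and 2411 CPM, a ratio of 0.34. None of the 7 was beyond 1.5-fold.

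The 3 sensors did not share a direction. ERN1, which encodes IRE1, the enzyme that splices the mRNA of XBP1, had 249.2 CPM in DR and 168.4 in WT (log2 fold change 0.56, interval 0.52 to 0.61). That is 1.48-fold higher, just under the 1.5-fold line, which it passed when scaled by library totals (0.61, interval 0.56 to 0.65). ATF6, whose freed cytosolic part is a transcription factor, had 148.2 and 203.8 CPM (-0.46, interval -0.50 to -0.41). EIF2AK3, which encodes PERK, the kinase that slows translation, had 77.0 and 87.7 CPM (-0.19, interval -0.25 to -0.12). Per length ATF6 was the highest of the 3 in both libraries, with 1.39 times the TPM of ERN1 in DR and 2.83 times in WT. These are mRNA levels, and neither splicing, phosphorylation nor cleavage was measured here.

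In ER-associated degradation DERL3 stood out. DERL3, a derlin of the retrotranslocation machinery known from secretory cells, had 7680 reads (138.0 CPM) in DR and 2267 reads (65.2 CPM) in WT. It was 2.11-fold higher in DR (log2 fold change 1.08, interval 1.01 to 1.14). Its reads were whole numbers. In RefSeq its span overlaps that of SMARCB1, and whether counting used strand is not stated, so reads of the pair cannot be told apart where they overlap. SMARCB1 had 95.6 and 101.0 CPM (-0.08). DERL1, a paralog of DERL3, had 180.7 and 148.1 CPM (0.29, interval 0.24 to 0.34). Per length DERL3 had 1.36 times the TPM of DERL1 in DR and 0.782 times in WT. HERPUD1, which gathers the degradation complex, was at 305.6 and 218.8 CPM (0.48). The ubiquitin ligase SYVN1 and its partner SEL1L were at -0.03 and -0.13, and EDEM1, which picks glycoproteins for destruction, at 0.05. The median of the 6 genes was 0.17, or 0.05 without DERL3.

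The values can also be read by promoter. All 7 genes with the ER stress element shown above lay above 0, from 0.08 for HSPA5 to 0.53 for HSP90B1, with a median log2 fold change of 0.34. Of all 16210 genes tested, 8204 lay above 0. The 7 are all chaperones or disulfide enzymes, roles in which 7 of 11 and 6 of 7 genes lay above 0. Promoter and role were not separated here. Of the 3 with the shorter form, HERPUD1 (0.48) and HYOU1 (0.16) lay above 0 and SDF2L1 (-0.30) below. The 6 with the unfolded protein response element lay between 0.04 and 0.54, with a median of 0.31. The 33 genes in which neither form of the ER stress element was found, or whose promoter was not matched, had a median of -0.01, with 15 above 0 and 18 below. TRAM1 and DERL3, the genes beyond 2-fold, are among these 33, as are all genes with the unfolded protein response element except HYOU1. These are descriptions of letters in a window, and most of the values lie under 1.5-fold.

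Other genes of the pathway were taken from lists written from general knowledge. Of 74 such genes, all tested, 61 (82.4%) lay within 1.5-fold, against 93.0% of the 43 and 80.7% of genes at 20 CPM or more. More than 2-fold higher in DR were 2 (background 7.42%, or 3.18% at 20 CPM or more), and 4 were more than 2-fold lower (4.19%, or 3.22%). The 74 had a median log2 fold change of -0.06 and a median level of 91.8 CPM in DR and 105.2 in WT. Higher were SIL1, a nucleotide exchange factor of BiP, and MZB1, a cochaperone of immunoglobulin-secreting cells. SIL1 had 57.3 and 27.5 CPM, and the interval of its log2 fold change of 1.05 spanned the 2-fold line (0.94 to 1.15). MZB1 had 450.2 and 224.6 CPM, and its log2 fold change of 1.002 (interval 0.96 to 1.04) was just past the line. Lower were PPP1R15A, which encodes GADD34, the phosphatase subunit that restarts translation (28.5 and 154.4 CPM, -2.42), and DNAJC1, a J-domain protein of the ER membrane (80.6 and 327.4 CPM, -2.02). EDEM3, a mannosidase that marks glycoproteins for degradation (229.0 and 725.3 CPM, -1.66), and CHAC1, which degrades glutathione (3.81 and 8.82 CPM, -1.11), were lower as well. The interval of CHAC1 (-1.35 to -0.88) also spanned the 2-fold line. With a pseudocount of 5 CPM neither SIL1 nor MZB1 was beyond 2-fold, and the count of lower genes was 3, without CHAC1.

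By sublist, the other subunits of the signal recognition particle and its receptor had a median of -0.12, with all 6 below 0 and none beyond 1.5-fold. SEC11A and SEC11C, the catalytic subunits of signal peptidase, were at 0.39 and 0.41. The 11 oligosaccharyltransferase genes, which add sugar to entering chains, had a median of -0.14 and none beyond 1.5-fold. The 16 other folding enzymes and cochaperones had a median of 0.26, the 6 lectin cycle genes 0.23 and the 18 other degradation factors -0.06. The 15 stress transcription factors and effectors had the lowest median, -0.38. Among them XBP1 had 570.6 CPM in DR and 741.5 in WT (-0.38, interval -0.40 to -0.35). ATF4, the factor made when PERK is active, had 328.0 and 568.5 CPM (-0.79, interval -0.82 to -0.76). DDIT3, which encodes the death-linked factor CHOP, was low, with 7.72 and 11.7 CPM (-0.57, interval -0.75 to -0.38).

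The usual targets of the sensors were grouped by arm, and many of them are among the 43 genes. The 15 targets of the XBP1 arm had a median of 0.05 and the 10 of the ATF6 arm 0.16, with DERL3 alone beyond 2-fold. The 6 genes listed for the PERK arm had a median of -0.52 and all lay below 0, from -0.05 for TRIB3 to -2.42 for PPP1R15A. Whether PERK accounts for these values was not tested, and its activity was not measured. PPP1R15A and CHAC1 were 2 of the 6 beyond 2-fold, against 4.19% of all genes tested (3.22% at 20 CPM or more). ATF3 (-0.48) and ASNS (-0.44) lay nearer 0. CHAC1, the less abundant of the pair, was no longer beyond 2-fold with a pseudocount of 5 CPM.

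**Figure D4:**
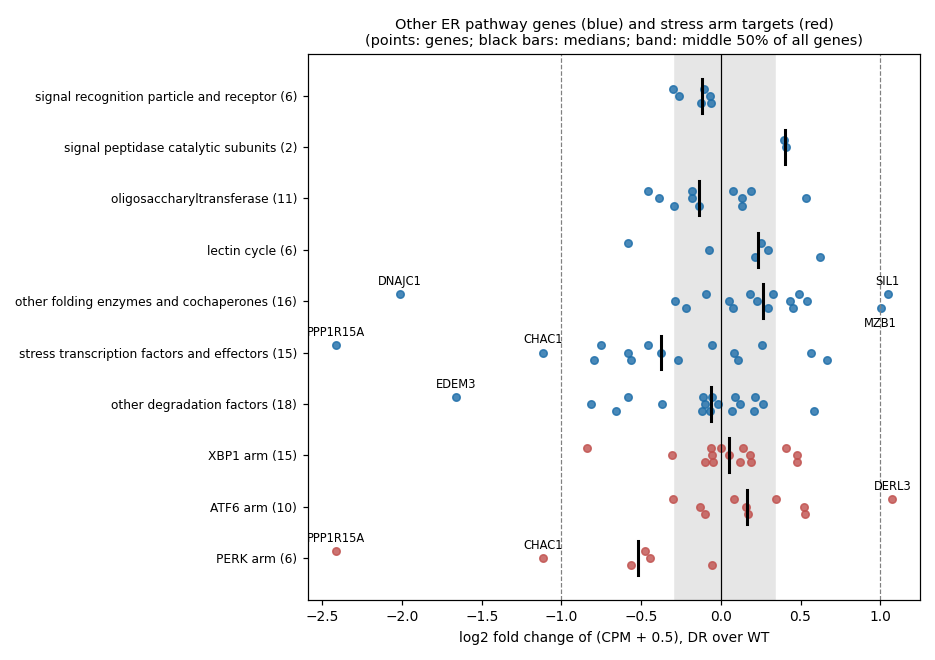
log2 fold change of (CPM + 0.5), DR over WT, for 74 other genes of the ER pathway by sublist (blue) and 31 targets of the stress arms (red), with the number of genes in brackets, a black bar at each median and a band for the middle 50% of all genes tested. Most points fall inside or near the band, and the PERK arm (median -0.52) lies to its left.

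The genes beside the 3 members past 1.5-fold were compared, in the order of the RefSeq map and without coordinates. Of the 6 tested genes nearest to TRAM1, 5 were lower in DR, with values from -1.74 for EYA1 to 0.17 for SLCO5A1 and a median of -0.67. LACTB2, next to TRAM1, had 14.4 CPM in DR and 32.3 in WT (-1.14, interval -1.26 to -1.01), and NCOA2, on its other side, 68.4 and 87.7 CPM (-0.36). TRAM1 thus lay beyond each of these neighbours, most of which lay on the same side of 0. Around SEC61G the 6 neighbours ranged from -0.27 to 0.64, with a median of 0.15. Around DERL3 they ranged from -0.08 to 1.18, with a median of 0.32. Some neighbours had few reads, so their values depend on the pseudocount. These include EGFR (10 and 1 reads) and VSTM2A (25 and 11) beside SEC61G. GSTT2B (10 and 0) beside DERL3 and PRDM14 (21 and 31) beside TRAM1 were low too. What TRAM1 shares with its neighbours was not tested.

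**Figure D5:**
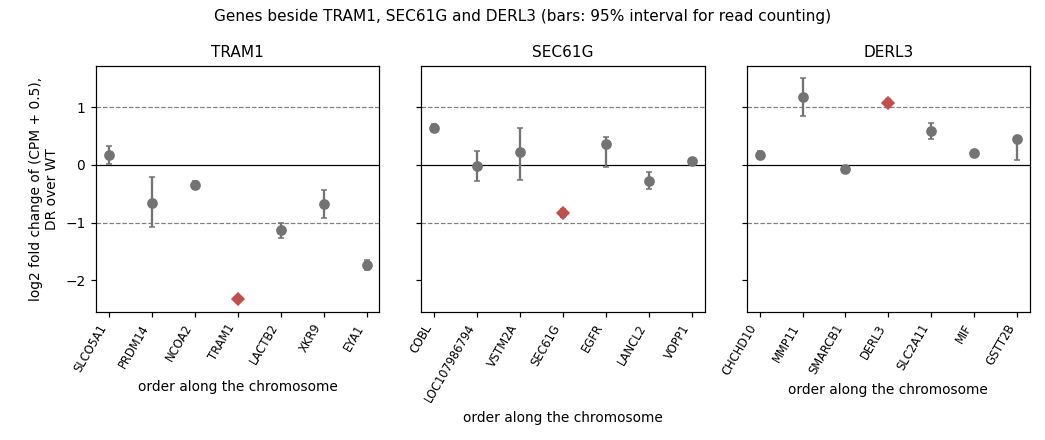
log2 fold change of (CPM + 0.5), DR over WT, for TRAM1, SEC61G and DERL3 (red diamonds) and the 3 tested genes on each side (grey), in map order, with bars for the 95% interval of read counting and dashed lines at 2-fold. LACTB2 (-1.14) and EYA1 (-1.74) lie below the 2-fold line beside TRAM1, and SEC61G (-0.84) lies below all of its neighbours.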

How the data were processed

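The authors deposited 1 table of estimated counts (expected counts per gene, not scaled for library size) with gene lengths, annotation, and columns of their own comparison (a log2 ratio with its p-value and q-value), which were not used. The submitters' processing notes name Bowtie 0.12.2 and hg19. The counting tool and annotation are not given in the sources used here. Counts were fractional for 9108 of 18267 genes with counts and for 21 of the 43 genes studied, and were rounded. The other 663 genes had none.

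Libraries were scaled by TMM (edgeR 4.0.16, R 4.3.3). The 16210 genes reaching a sum of 10 reads were compared with folds of 2 and 1.5 on log2 (CPM + 0.5), with 95% Clopper-Pearson intervals (SciPy 1.17.1) of the share of reads. Reads carry no molecular identifiers, so intervals cover counting error only, and a floor of 3 reads was worth 0.0539 and 0.0862 CPM. With 1 library per group no model of spread could be fitted, and no p-value is given. All 43 genes are accounted for. Full values are given for those past 1.5-fold, the sensors, the extremes of each role and the highest per length, and for other pathway genes past 2-fold with XBP1, ATF4 and DDIT3. Any further gene was named with its values in view. The genes and lists were chosen, from general knowledge, with earlier results of these data known. Alternatives were DESeq2 1.42.0 size factors, library totals, other pseudocounts, filters, unrounded counts and levels not divided by length.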

Additional observations from a re-analysis of the deposited data

How the results depend on the processing

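No paired analysis was possible because DR and WT have 1 library each, and no replicate could be left out. DERL3 stayed the only one of the 43 genes beyond 2-fold higher, and TRAM1 the only one beyond 2-fold lower, under the alternatives tried. Library totals moved the median log2 fold change of all genes by 0.04 and that of the 43 genes to 0.12, and put 2 of them past 1.5-fold higher, ERN1 beside DERL3. SEC61A1, PDIA3 and SYVN1, all within 0.03 of 0, changed sign there, and 1 gene did with DESeq2 size factors. A pseudocount of 5 CPM, which shrinks low genes most, left 0 of the other pathway genes past 2-fold higher. SIL1 was lost, and so was MZB1, an abundant gene that lay at 1.002 with 0.5 CPM. Past 1.5-fold higher it left 3, against 5 with 0.5 CPM. It left 3 past 2-fold lower (CHAC1 was lost) and 1 stress arm target past 2-fold lower. A pseudocount of 0.1 CPM put 12 of the other pathway genes past 1.5-fold lower, against 8 with 0.5 CPM, and 4 stress arm targets, against 3. The median level percentile in DR and WT was 94.7 and 94.5 without a filter, 93.3 and 93.0 with a minimum of 50 reads (both change which low genes are ranked), and 95.2 and 94.7 with reads not divided by length. As choices made once the data had been seen, keeping only genes with whole counts gave a median of 0.15 over fewer genes, and keeping only symbols as written left it at 0.08. Of the single genes, 22 of 43 moved outside their counting interval with library totals and 0 with each other alternative.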

Other observations

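In DR over WT, of the 160 tested genes that the deposited annotation places in the ER lumen, 17 were more than 2-fold higher in DR and 4 more than 2-fold lower, with a median log2 fold change of 0.21 (over all genes tested, 7.42% and 4.19%, and 0.01). None of the 14 lumen genes among the 43 described above is in either number, but SIL1, MZB1 and EDEM3 are. The largest differences upward in that set were those of ARSI, a sulfatase (301 and 8 reads, 3.02), and KDELC1 (1676 and 150 reads, 2.67). Collagen and WNT genes were also among the 17, some with few reads, such as COL4A5 (123 and 0) and WNT7A (37 and 0). So was PDIA2, a protein disulfide isomerase outside the lists used here (9.48 and 3.36 CPM, 1.37, interval 1.11 to 1.63). The 160 genes had a median of 17.8 CPM in DR and 15.1 in WT, against 19.9 and 19.7 for all genes tested. Of the 160, 66.9% lay within 1.5-fold. Besides EDEM3, the lower genes were PDGFA (111 and 213 reads, -1.41), COL13A1 (39 and 91 reads, -1.38) and ESD (1161 and 1581 reads, -1.10). Of the 675 tested genes placed in the ER membrane, 42 were more than 2-fold higher and 23 more than 2-fold lower, with a median of 0.01. These sets were chosen after the annotation had been seen.

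The genes beside EDEM3 and DNAJC1 were also lower in DR for the most part. The 6 tested neighbours of EDEM3 ranged from -1.83 for FAM129A (47.2 and 169.4 CPM) to -0.06 for TRMT1L, with a median of -0.69. Those of DNAJC1 ranged from -2.85 for COMMD3-BMI1 (782 and 3643 reads) to 0.29 for SKIDA1, with a median of -1.02. COMMD3-BMI1 is a read-through gene whose reads overlap those of COMMD3 (54.8 and 169.4 CPM, -1.62). EBLN1 (0 and 20 reads) and CASC10 (28 and 49 reads), also beside DNAJC1, had few reads. Around PPP1R15A the neighbours ranged from -0.23 to 1.27, with a median of 0.41. The median of the neighbours was -0.07 around SIL1, 0.08 around CHAC1 and 0.16 around MZB1.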
